A study of Mus musculus with 6 samples.

Results

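The BCL2 family decides whether a cell keeps its mitochondrial outer membrane intact or commits to apoptosis, and its transcripts were compared between leukemic stem cells and bulk leukemic cells of the same mice. The family was taken as 10 named genes, of which 9 were found by symbol among the 13892 rows of the expression table: BCL2, MCL1, BCL2L1, BCL2A1, BAX, BAK1, BID, BCL2L11 and PMAIP1. BBC3, which encodes PUMA, was not analysed here. The leukemias were human acute myeloid leukemias (AML) raised in NSG mice, an immunodeficient strain, by transducing human hematopoietic stem cells with NPM1c, the cytoplasmic mutant of nucleophosmin. Bone marrow of 3 moribund mice, each from its own transduction, was sorted into leukemic stem cells (LSC), positive for GFP, CD33 and CD123, and bulk leukemic cells, positive for GFP and CD33. Both populations therefore carried NPM1c, which GFP reported, and each had 3 libraries, with the same number marking the same mouse. The bulk gate did not name CD123, so LSC here means the CD123-positive gate and bulk is not its complement.

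Guardian proteins such as BCL2, MCL1, BCL-XL and BFL1 hold the pathway off by binding the BH3 segment of their pro-apoptotic relatives. BAX and BAK are the effectors that form pores in the outer membrane and release cytochrome c. BH3-only proteins such as BID, BIM and NOXA carry stress signals to them, either by occupying the guardians or by activating the effectors directly. Myeloid leukemias are known to lean on BCL2 and MCL1, and the BCL2 inhibitor venetoclax is used against AML. Values per gene do not separate splice forms, such as the long and short products of BCL2L1 and MCL1, and much of the control of these proteins lies after transcription.

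The libraries held 10669560 to 14933494 reads, of which 27.2% to 70.0% fell on MTRNR2L rows. Bulk replicate 1 had the fewest other reads, 3423878 against 6132431 to 9571165 elsewhere. Values are given as CPM, reads relative to the authors' normalized library size, and the level of 3 reads was 0.514 CPM in bulk replicate 1 and 0.190 to 0.254 CPM in the other libraries. IL3RA, the gene of CD123, stood at 48.0 to 139.5 CPM in LSC and 1.54 to 2.37 CPM in bulk. CD33, whose product both gates selected, had 6.80, 8.05 and 1.17 CPM in LSC replicates 1, 2 and 3. In bulk replicates 1, 2 and 3 it had 4.45, 8.215 and 13.05 CPM (log2 change -0.96, limma adjusted p = 0.512). LSC replicate 3 held 16 reads of CD33. The populations also differed in markers of cell type and division. Summed CPM of 19 plasmacytoid dendritic cell markers was 2226 to 4060 in LSC and 159 to 508 in bulk. IL3RA is among the 19, and the LSC gate selected its product, so its part in these values was set by the sort. Of the 19, 15 rose (18 with the mouse as a block, which compares each LSC library with the bulk library of its own mouse). Over all genes tested, limma called 4.04% in either direction, and 16.0% with the block. CLIC3 and SCT of that list were at 0 reads in every bulk library. A gene needed 1 CPM in 3 libraries to be tested, so both could enter only through the LSC libraries. Their zeros in bulk are therefore no separate evidence. Sums of 18 G2 and M phase genes were 1115 to 1795 in LSC and 4185 to 8126 in bulk, and 7 of the 18 fell (15 with the block). Of 7 monocyte markers 1 fell (3 with the block), with sums of 1020 to 2642 in LSC and 3346 to 5273 in bulk, and 0 of 8 T and NK cell markers passed. The part of these differences in the family's values was not tested. LSC replicate 3 had the most genes without a read, 262 against 51 to 143 in the others.

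**Figure D1:**
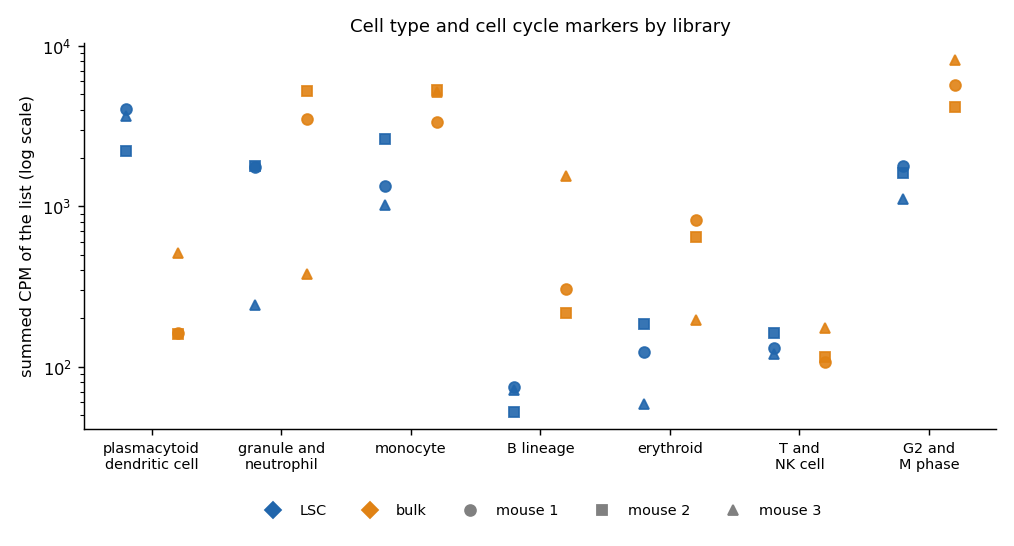
Summed CPM (log axis) of each marker list in every library, with LSC on the left and bulk on the right of each pair and a symbol per mouse. Plasmacytoid markers are higher in every LSC library, B lineage, monocyte, erythroid and G2 and M sums are lower in LSC, and granule sums of mouse 3 (244 in LSC and 379 in bulk) lie apart from those of the other mice.

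The main comparison asked which family members differed between LSC and bulk. None of the 9 passed an adjusted p of 0.05 in limma, which called 4.04% of the 13755 genes tested. At an unadjusted p under 0.05 limma had 1 of the 9, against 20.2% of all genes. With the mouse as a block 0 of 9 passed, against 16.0% of all genes, and 4 of 9 had an unadjusted p under 0.05, against 32.5%. Voom on the recovered reads also called 0 of 9, against 3.46%. In the authors' deposited table the lowest false discovery rate of a member was 0.380, for BCL2L1. The median log2 change of the 9 was -0.10 and that of all genes tested was -0.0036. Changes ran from -2.62 for BCL2L1 to 1.10 for BAX, with 3 members positive and 6 negative. The LSC and bulk libraries did not overlap for 1 member, BCL2L1, against 25.2% of all genes, and 3 members moved the same way in all 3 mice, against 53.2%. In RNA of a sorted population, fewer cells that express a gene and less of its RNA per cell cannot be told apart.

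**Figure D2:**
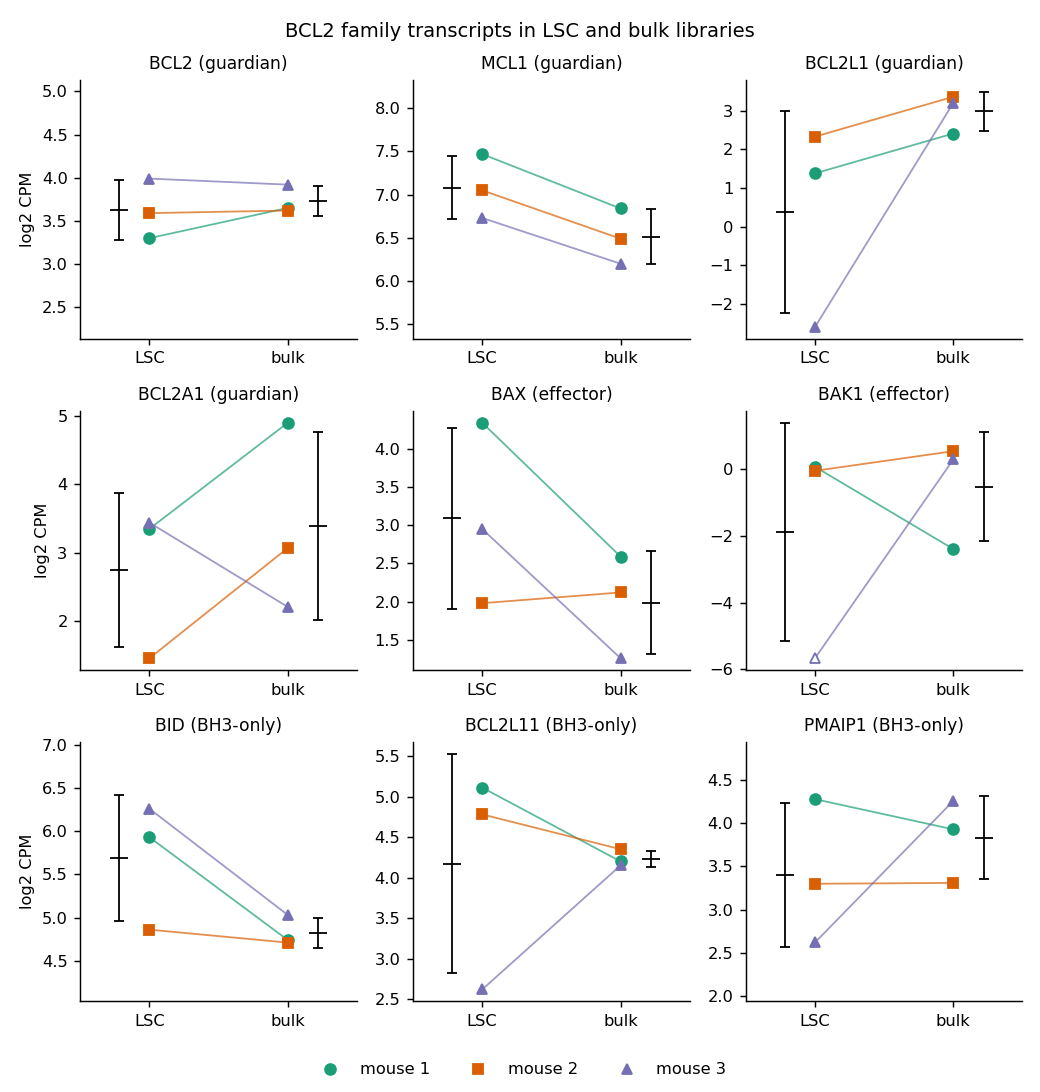
Log2 CPM of the 9 family members in every library, with LSC on the left, bulk on the right and a line joining the libraries of each mouse. Black marks give mean ± SD of 3 libraries, the vertical axis has its own range in each panel, and the open symbol marks 0 reads. MCL1 lines run parallel in the 3 mice, BCL2 lines are nearly flat, and LSC of mouse 3 is the lowest library for BCL2L1, BAK1, BCL2L11 and PMAIP1.

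BCL2, the founding guardian and the target of venetoclax, varied little across the libraries. It had 9.83, 12.05 and 15.9 CPM in LSC replicates 1, 2 and 3, against 12.5, 12.3 and 15.2 CPM in bulk replicates 1, 2 and 3. The groups overlapped, and mouse 3 had the highest value in both populations. BCL2 had a log2 change of -0.10 (SE 0.36, 95% interval -0.90 to 0.70, limma adjusted p = 0.897). A fold between 0.534 and 1.62 was therefore not separated from no change. With the mouse as a block BCL2 had an interval of -0.78 to 0.58 and a limma adjusted p of 0.845. Its SD of log2 CPM over the 6 libraries was 0.25, and 4.79% of tested genes had a lower one, while the median gene had 0.66. Of its sum of squares, 80.1% lay between mice and 4.95% between populations. The sign of so small a change was not fixed, since it was 0.020 without mouse 1 and 0.062 without LSC replicate 1 (adjusted p = 0.946, and 0.782 to 0.996 over all alternatives).

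MCL1, a short-lived guardian on which myeloid progenitors depend, was higher in LSC in every mouse without passing the test. It had 177, 132 and 106 CPM in LSC replicates 1, 2 and 3, against 115, 90.0 and 73.6 CPM in bulk replicates 1, 2 and 3. The lowest LSC library lay below the highest bulk library, so the groups overlapped, but the order of the mice was the same in both populations. Log2 differences within mice 1, 2 and 3 were 0.62, 0.56 and 0.53. The fit gave a log2 change of 0.57 (SE 0.30, 95% interval -0.12 to 1.25, limma adjusted p = 0.326), a fold of 1.48. Under the block the interval was 0.13 to 1.00 and the adjusted p 0.0765. Populations held 50.6% of the sum of squares, mice 49.2% and the remainder 0.244%. On the 4 libraries of mice 1 and 2, under the block, its adjusted p was 0.0421, in a fit chosen after the values were seen that called 24.1% of all genes. Over all alternatives it ran from 0.0421 to 0.570.

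BCL2L1, which encodes BCL-XL and is the guardian best known from platelets and maturing red cells, had the lowest log2 change of the family. It had 2.59, 5.01 and 0.146 CPM in LSC replicates 1, 2 and 3, against 5.31, 10.2 and 9.15 CPM in bulk replicates 1, 2 and 3. Every LSC library lay below every bulk library. LSC replicate 3 held 2 reads of the gene, an exact 95% counting interval of 0.0177 to 0.527 CPM, while the bulk library of the same mouse held 143. LSC was 2.05-fold lower in both mouse 1 (counting interval 1.22 to 3.43) and mouse 2 (1.53 to 2.75), and 62.7-fold lower in mouse 3 (17.1 to 523). Its log2 change was -2.62 (SE 1.12, 95% interval -5.13 to -0.11), with an unadjusted p of 0.0427 and a limma adjusted p of 0.229. That change became -1.13 without LSC replicate 3 (adjusted p = 0.379) and -1.61 with a pseudocount of 1 CPM (limma adjusted p = 0.146). It was -1.65 in voom with the block, a fit added after seeing the data. Under the block in limma the adjusted p was 0.0805, the lowest of all alternatives, and the highest was 0.470.

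Erythroid marker sums were also lower in every LSC library than in every bulk library. Of 11 tested, 3 fell and none rose, against 4.04% of all genes called in either direction. Under the block 9 fell, against 16.0% of all genes. Their summed CPM was 124, 185 and 58.3 in LSC replicates 1, 2 and 3, against 827, 641 and 197 in bulk replicates 1, 2 and 3. LSC replicate 3 was the lowest library for these markers and for BCL2L1. Among bulk libraries, replicate 3 was the lowest for the markers, with 9.15 CPM of BCL2L1, and replicate 1 the lowest for BCL2L1. No erythroid marker was at 0 in a whole group. The part of red cell precursors in the BCL2L1 values was not tested.

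BCL2A1, the guardian BFL1 that is prominent in neutrophils and in cells with active NF-kB, differed in direction between mice. It had 10.2, 2.73 and 10.9 CPM in LSC replicates 1, 2 and 3, against 29.8, 8.38 and 4.61 CPM in bulk replicates 1, 2 and 3. The groups overlapped, with log2 differences of -1.54 and -1.61 in mice 1 and 2 and 1.24 in mouse 3. Over the 3 mice the log2 change was -0.64 (SE 0.76, 95% interval -2.35 to 1.07, limma adjusted p = 0.675, 0.465 with the block). That mice 1 and 2 differ from mouse 3 was not tested, since each mouse gave 1 library of a kind. Without LSC replicate 2 the change was 0.0060 and without bulk replicate 1 it was 0.11, and the adjusted p ran from 0.00258 to 0.999 over all alternatives. The lowest came from mice 1 and 2 under the block, a fit chosen after the values were seen that omits the mouse of opposite sign and called 24.1% of all genes, so no difference is drawn from it. Granule and neutrophil markers, 16 in number, summed to 1759, 1794 and 244 CPM in LSC replicates 1, 2 and 3, against 3499, 5247 and 379 CPM in bulk replicates 1, 2 and 3. None of the 16 passed without the block, against 4.04% of all genes, and 9 fell with it, against 16.0%. None was at 0 in a whole group, and their part in the BCL2A1 values was not tested.

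Neither effector passed the test. BAX, which moves from the cytosol to mitochondria when activated, had 20.2, 3.93 and 7.73 CPM in LSC replicates 1, 2 and 3, against 5.99, 4.32 and 2.37 CPM in bulk replicates 1, 2 and 3. LSC was higher in mice 1 and 3, by 1.75 and 1.70 (log2), while mouse 2 had a difference of -0.14, and the groups overlapped. BAX had a log2 change of 1.10 (SE 0.65, 95% interval -0.36 to 2.57, limma adjusted p = 0.373), with 0.149 under the block and 0.113 to 0.693 over all alternatives. It was 0.48 without LSC replicate 1, which had the highest value. The smallest BAX count was 35 reads, in bulk replicate 1.

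BAK1, the effector that resides in the outer membrane, was close to the limit of detection. It had 14, 15 and 0 reads in LSC replicates 1, 2 and 3, against 1, 17 and 19 reads in bulk replicates 1, 2 and 3. These were 1.03, 0.951 and 0 CPM in LSC, against 0.171, 1.44 and 1.22 CPM in bulk. In mouse 3, with 0 LSC reads, the exact 95% counting interval began at a level 4.09-fold lower in LSC. In mouse 1 the LSC to bulk ratio was 6.04, with an exact 95% counting interval of 0.919 to 256 on 1 bulk read, and in mouse 2 it was 0.661 (0.307 to 1.41). The ratios in mice 1 and 2 lay on opposite sides of 1, and both of their intervals included 1. The fitted log2 change of -1.37 (SE 1.79, limma adjusted p = 0.705, 0.646 with the block) depends on the prior behind the deposited log2 values. Without LSC replicate 3 it was 0.53 (adjusted p = 0.859, and 0.520 to 0.882 over all alternatives).

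Among the BH3-only genes, BID was higher in LSC in each mouse without passing the test. Its product is cleaved by caspase 8 and links death receptors to mitochondria. BID had 61.0, 29.1 and 76.5 CPM in LSC replicates 1, 2 and 3, against 26.7, 26.1 and 32.6 CPM in bulk replicates 1, 2 and 3. The bulk libraries lay close together, and LSC replicate 2 lay inside their range while the other LSC libraries lay above it. Log2 differences were 1.19, 0.16 and 1.23 in mice 1, 2 and 3. BID had a log2 change of 0.86 (SE 0.39, 95% interval -0.018 to 1.74, limma adjusted p = 0.255), a fold of 1.82. Under the block the interval was 0.22 to 1.499 and the adjusted p 0.0703. In all 18 alternatives it stayed above the threshold, at 0.05002 to 0.621.

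BCL2L11, the gene of BIM, which binds every guardian, varied little in bulk and widely in LSC. It had 34.6, 27.4 and 6.13 CPM in LSC replicates 1, 2 and 3, against 18.3, 20.3 and 17.7 CPM in bulk replicates 1, 2 and 3. LSC replicates 1 and 2 lay above all bulk libraries and LSC replicate 3 below them. Its SD of log2 CPM was 1.35 in LSC and 0.10 in bulk (n = 3 each), and this difference in spread was not tested. The log2 change was -0.060 (SE 0.59, 95% interval -1.40 to 1.28, limma adjusted p = 0.964, 0.941 with the block). It was 0.71 without LSC replicate 3 (adjusted p = 0.391), and no alternative passed (0.103 to 0.999).

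PMAIP1 encodes NOXA, a p53 target that binds MCL1 and promotes its turnover. It had 19.4, 9.83 and 6.13 CPM in LSC replicates 1, 2 and 3, against 15.2, 9.91 and 19.1 CPM in bulk replicates 1, 2 and 3. Mice 1 and 2 differed by 0.35 and -0.012 on the log2 scale and mouse 3 by -1.64. The log2 change was -0.43 (SE 0.49, 95% interval -1.54 to 0.67, limma adjusted p = 0.658, 0.511 with the block). Without LSC replicate 3 it was -0.043 (adjusted p = 0.978, and 0.328 to 0.978 over all alternatives). In LSC replicate 3 BCL2L11 and PMAIP1 had 84 reads each. That library had the lowest value of all 6 for BCL2L1, BAK1, BCL2L11 and PMAIP1, but the highest for BCL2 and BID.

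**Figure D3:**
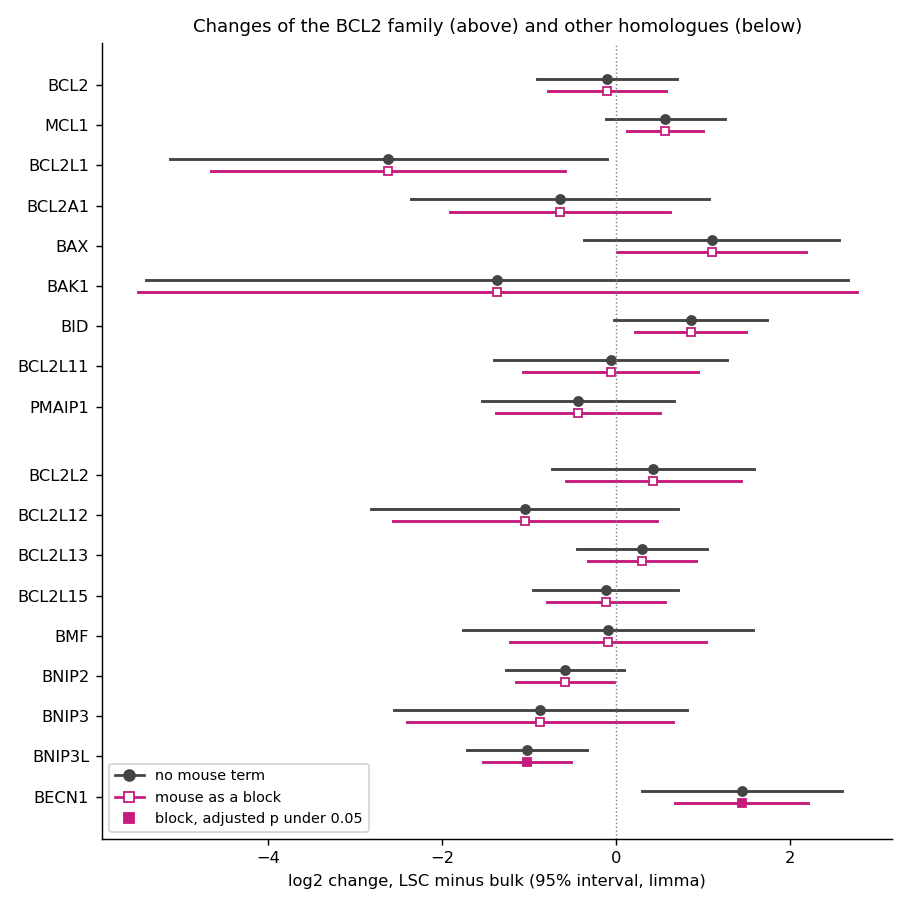
Log2 change, LSC minus bulk, with its 95% limma interval for the 9 family members (above) and 9 other homologues (below), without a mouse term (circles) and with the mouse as a block (squares, filled where the adjusted p passed). BNIP3L and BECN1 pass with the block, no family member does, and the intervals of BCL2L1 and BAK1 are the widest shown.

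Ratios of family members within a library were compared next, because the scaling of libraries largely cancels in them. Their difference between groups does not depend on gene length. Where reads are few, as for BCL2L1 in LSC replicate 3, they still depend on the prior behind the deposited log2 values. An exact two-sided permutation test of 3 LSC against 3 bulk libraries cannot go below p = 0.1, so none of the 8 ratios could pass this test. Among them the log2 ratio of BCL2 to MCL1 was -4.17, -3.45 and -2.74 in LSC replicates 1, 2 and 3, against -3.20, -2.87 and -2.28 in bulk replicates 1, 2 and 3. LSC had the lower ratio in all 3 mice, with differences of -0.97, -0.58 and -0.46. The groups overlapped, and the mean difference was -0.67 (exact permutation p = 0.3, 0.64 after adjustment over the 8 ratios). The ratio of MCL1 to BCL2L1 was 6.08, 4.72 and 9.33 in LSC, against 4.43, 3.13 and 3.01 in bulk. Here every LSC library exceeded every bulk library, with a difference of 3.19 and the smallest exact permutation p of this unpaired test, 0.1 (0.4 adjusted). Pairing the libraries by mouse gave an exact permutation p of 0.25, the smallest that 3 pairs allow. Mice 1 and 2 differed by 1.66 and 1.58 and mouse 3, with its 2 BCL2L1 reads, by 6.32. Without LSC replicate 3 the difference was 1.88, and with a pseudocount of 1 CPM it was 2.18.

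BCL2 relative to BCL2L1 also did not overlap, at 1.92, 1.26 and 6.59 in LSC, against 1.23, 0.26 and 0.73 in bulk (exact permutation p = 0.1, 0.4 adjusted, and 0.25 paired by mouse). The difference was 2.52, with 0.85 without LSC replicate 3 and 1.52 with a pseudocount of 1 CPM. The ratio of BCL2 to BAX differed by -1.21 (exact permutation p = 0.4, 0.64 adjusted) and by -2.09, 0.11 and -1.63 in mice 1, 2 and 3. MCL1 to BCL2A1, BCL2 to BCL2A1 and BCL2L1 to BCL2A1 had differences of 1.21, 0.54 and -1.98, and in each of the 3 mouse 3 took the opposite sign to mice 1 and 2. The difference of BCL2L1 to BCL2A1 was -0.15 without LSC replicate 3 and -3.60 without LSC replicate 2. It was -3.02 without bulk replicate 1 and -1.28 without bulk replicate 3. With a pseudocount of 1 CPM this difference was -1.04. That of MCL1 to BCL2A1 was 0.58 without LSC replicate 2 and 0.62 without bulk replicate 1, and that of BCL2 to BCL2A1 was -0.090 and -0.26 without these libraries. BCL2L11 to BCL2, a BH3-only activator against its guardian, differed by 1.26, 0.46 and -1.60 in mice 1, 2 and 3, a mean of 0.042 (exact permutation p = 1).

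**Figure D4:**
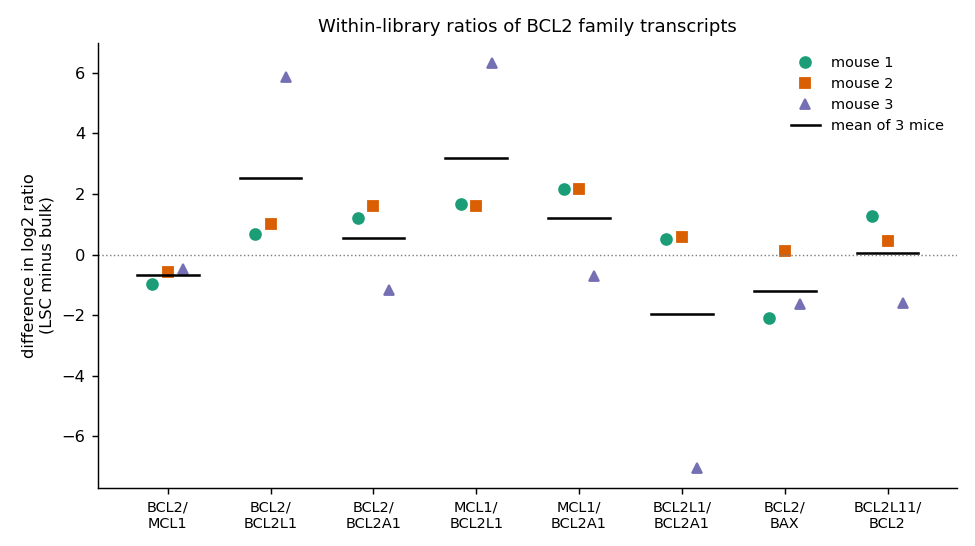
Difference in within-library log2 ratio, LSC minus bulk, for 8 pairs of family members, with a symbol per mouse and a bar at the mean of the 3 mice. The 3 mice share a sign for BCL2/MCL1 (below 0) and for BCL2/BCL2L1 and MCL1/BCL2L1 (above 0), and mouse 3 lies far from the others where BCL2L1 is in the ratio.

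Genes with the most similar profiles were sought by the Euclidean distance of log2 CPM, centred over the 6 libraries. For BCL2 they were ZNF362, HDAC2, LMBR1 and GK, at distances of 0.152 to 0.223, against a median of 1.59 over all tested genes. For MCL1 they were PRRC2B, EIF4ENIF1, CPSF3L and DDX24, at 0.332 to 0.380 against a median of 1.76. The lowest limma adjusted p among these 8 genes was 0.384. They were chosen on the same values that limma tested, so this is no separate result. Also, 6 libraries from 3 mice describe a profile only coarsely.

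Another 9 homologues and BH3 genes were tested of 16 listed, and the other 7, among them BAD, BIK and HRK, were not analysed here. Without the block 0 of 9 passed in limma, against 4.04% of all genes, and 2 had an unadjusted p under 0.05, against 20.2%. In voom 0 passed, against 3.46%. The LSC and bulk libraries did not overlap for 3 of the 9, against 25.2% of all genes. Under the block 2 of 9 passed, against 16.0%, BECN1 as higher and BNIP3L as lower in LSC. BECN1, the autophagy protein beclin 1 whose BH3 segment binds BCL2, had 29.4, 15.8 and 15.4 CPM in LSC replicates 1, 2 and 3, against 12.3, 7.79 and 3.65 CPM in bulk replicates 1, 2 and 3. The groups did not overlap, and the log2 change was 1.45 (SE 0.51, limma adjusted p = 0.156, 0.0227 with the block, and 0.0123 to 0.349 over all alternatives). BNIP3L, the mitophagy receptor NIX of maturing red cells, had 31.1, 42.9 and 54.7 CPM in LSC replicates 1, 2 and 3, against 79.4, 78.5 and 97.8 CPM in bulk replicates 1, 2 and 3. It did not overlap either, with a log2 change of -1.02 (SE 0.31, limma adjusted p = 0.104, 0.0182 with the block, and 0.000411 to 0.415 over all alternatives). The erythroid sums given beside BCL2L1 were also lower in LSC. LSC replicate 3 had the lowest of those sums and the highest BNIP3L value of the LSC libraries. The part of red cell precursors in the BNIP3L values was not tested.

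The other 7 homologues passed neither test. BNIP2 had a log2 change of -0.58 and was lower in LSC in all 3 mice without overlap, at 26.3 to 41.2 CPM in LSC and 44.8 to 55.6 CPM in bulk. BCL2L12 and BNIP3 had changes of -1.05 and -0.87, and BNIP3 rested on 9 to 45 reads per library. BCL2L2, the guardian BCL-w, and BCL2L13 had 0.43 and 0.30. BCL2L15 and BMF, a BH3-only gene, had -0.12 and -0.089, and both changed sign when some libraries were left out. BCL2L2 shares exons with a read-through transcript into PABPN1 and BNIP3 has a processed copy, so their reads may be divided between loci.

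Downstream of mitochondria, genes of the apoptosome, the caspases and their inhibitors gave no call without the block. Of 19 tested, 0 passed in limma, against 4.04% of all genes, and 1 had an unadjusted p under 0.05, against 20.2%. The median log2 change was 0.32, with 14 positive and 5 negative, while 49.8% of all genes were positive. In voom 0 passed, against 3.46%. With the block 1 of 19 passed, against 16.0% of all genes. This was DFFA, which encodes the inhibitor and chaperone of the caspase-activated DNase. It had 97.3, 325 and 256 CPM in LSC replicates 1, 2 and 3, against 42.1, 112 and 86.9 CPM in bulk replicates 1, 2 and 3. The groups overlapped, but LSC was higher by 1.21, 1.53 and 1.56 (log2) in mice 1, 2 and 3. For DFFA the log2 change was 1.43 (SE 0.51, limma adjusted p = 0.156, 0.00259 with the block, and 6.94e-07 to 0.422 over all alternatives).

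Genes that control or bind BCL2 proteins held the single call of these lists without the block on the log2 CPM scale. Of 20 tested, FOXO1 fell and none rose, with a median log2 change of -0.17, while limma called 4.04% of all genes. FOXO1 is a transcription factor of the FOXO group, whose known targets include BCL2L11. It had 5.91, 4.82 and 3.28 CPM in LSC replicates 1, 2 and 3, against 24.8, 18.8 and 112 CPM in bulk replicates 1, 2 and 3. No LSC library reached a bulk library, and the log2 change was -3.04 (SE 0.64, limma adjusted p = 0.0334, 0.00985 with the block). The call was lost with voom (0.0599) and without LSC replicate 1, 2 or 3 or bulk replicate 1 (0.0616 to 0.0965) and without mouse 1, 2 or 3 (0.0684 to 0.180), and the adjusted p was 3.19e-05 to 0.180 over all alternatives. In the fits that left out 1 library the change was -2.25 without bulk replicate 3, where the call held, and -2.81 to -3.54 otherwise. B lineage markers, of which FOXO1 is a known regulator, summed to 74.9, 52.4 and 71.2 CPM in LSC replicates 1, 2 and 3, against 307, 216 and 1551 CPM in bulk replicates 1, 2 and 3. Bulk replicate 3 was the highest library for both. Of 10 tested 2 fell and none rose, against 4.04% of all genes, and 7 fell with the block, against 16.0%. No B lineage marker was at 0 in a whole group, and their part in the FOXO1 values was not tested.

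With the block 3 of the 20 regulators passed, FOXO1 and 2 further genes, against 16.0% of all genes. HUWE1, a ubiquitin ligase of MCL1, had 173, 143 and 125 CPM in LSC replicates 1, 2 and 3, against 235, 224 and 234 CPM in bulk replicates 1, 2 and 3. All LSC libraries lay below the bulk libraries (log2 change -0.66, SE 0.25, limma adjusted p = 0.187, 0.0485 with the block, and 0.0314 to 0.454 over all alternatives). DYNLL1, a dynein light chain that binds BIM, had 81.3, 30.8 and 67.4 CPM in LSC, against 37.0, 18.6 and 38.3 CPM in bulk. LSC was higher in each mouse, with overlapping groups (log2 change 0.89, SE 0.45, limma adjusted p = 0.298, 0.0334 with the block, and 0.00797 to 0.596 over all alternatives).

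On the death receptor side, upstream of BID, 0 of 9 genes passed in limma without the block, against 4.04% of all genes. An unadjusted p under 0.05 was seen in 1, against 20.2%, and 0 passed in voom, against 3.46%. The median log2 change was 0.038. With the block 1 of 9 passed, against 16.0% of all genes. This was TRADD, the adaptor of the TNF receptor. It had 5.91, 6.59 and 10.4 CPM in LSC replicates 1, 2 and 3, against 2.23, 1.86 and 1.02 CPM in bulk replicates 1, 2 and 3. The groups did not overlap, and the log2 change was 2.18 (SE 0.54, limma adjusted p = 0.0618, 0.0290 with the block, 0.0436 without it on log2(CPM + 1), and 0.0239 to 0.255 over all alternatives).

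**Figure D5:**
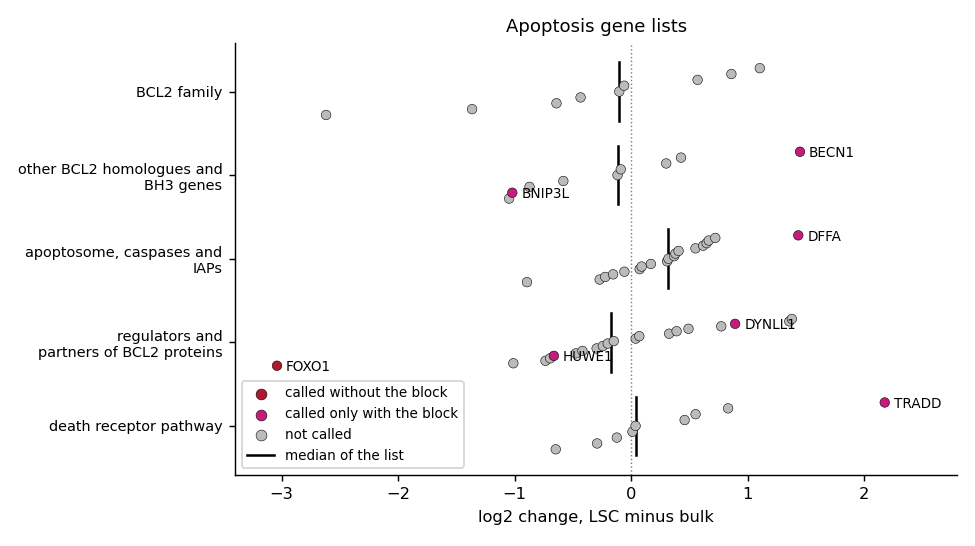
Log2 change, LSC minus bulk, of every tested gene in the BCL2 family and 4 further apoptosis lists, with a bar at each list's median and colours for genes called without the block, called only with it, or not called. At the settings plotted FOXO1 is the only gene called without the block, and list medians lie between -0.17 and 0.32.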

How the data were processed

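Per the labels' protocols, RNA of LSC and bulk cells was amplified with a NuGEN Ovation kit. Bowtie2, RSEM, edgeR and hg19 are named, without version or role, in the submitters' processing notes. The authors' deposited values are log2 CPM relative to normalized library sizes, with a prior that keeps zeros finite, a scale read from the values. The same deposited table gives the authors' p-value, false discovery rate and test score (a likelihood ratio). Their fold change is bulk over LSC. Reads were recovered from the floor that all libraries share and the size of a step, and 100% of values were whole within 0.1. No count model was fitted, as the files hold log2 values.

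The 13755 genes that reached 1 CPM in 3 or more libraries were tested with limma 3.58.1 in R 4.3.3 (trend, two-sided, Benjamini-Hochberg over all genes, threshold 0.05), without a mouse term. Same-numbered libraries come from the same mouse, and their deviations correlated at 0.327, 0.350 and 0.302, so blocked values are also given. Ratios used SciPy 1.17.1. Counting intervals are exact, at 95%, and cover counting error only. The code was run on simulated reads in which 200 genes changed by known folds, larger than those of most members. The outcome of that run is not used for the members here. Alternatives were a pseudocount of 1 CPM, no filter or 5 CPM, upper-quartile scaling, scaling to reads outside MTRNR2L rows, voom on the recovered reads (476 genes called), the block, and leaving out each library or mouse. Voom with the block, and the block on mice 1 and 2, were added after seeing the data. The members and lists were chosen with earlier results of these data known. Named genes are all members and tested homologues, and genes of other lists past the threshold with or without the block. For BCL2 and MCL1 the 4 nearest genes are also named, leaving out unnamed rows, HLA, receptor segments and sex-linked markers, and those of BCL2L11 are not reported here. Date-like entries stood in place of 21 gene symbols and were left unmatched.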

Additional observations from a re-analysis of the deposited data

How the results depend on the processing

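Of the 9 family members 2, MCL1 and BCL2A1, passed with the replicate block on mice 1 and 2. That fit was chosen after the values were seen and called 24.1% of all genes. None of the 9 passed under the other 17 alternatives. Of the 13755 genes tested, the replicate block called 1135 higher and 1060 lower (16.0%), and voom with the block 1216 and 1217. The block on mice 1 and 2 called 1747 and 1567 (24.1%). With log2(CPM + 1) 446 were higher and 302 lower, against 373 and 183 (4.04%) in the main fit without the block. Leaving out a library or a mouse gave 37 to 346 higher and 0 to 169 lower. Of the 9 other homologues 2 were called with the block, with voom and the block, and with the block on mice 1 and 2, against 0. The apoptosome and caspase list of 19 had 1, 1 and 4 in the same order. The death receptor list of 9 had 1, 1 and 3, and 1 with log2(CPM + 1). The regulator list of 20 had 3 in each, 0 with voom, and 0 to 1 with a library or mouse left out.

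Changes of sign occurred in some family members and in the other homologues BCL2L15 and BMF. With libraries or mice left out, changes ran from -3.28 to 0.94 for BAK1, -0.28 to 0.062 for BCL2, -1.58 to 0.11 for BCL2A1, -0.55 to 0.71 for BCL2L11, -0.41 to 0.20 for BCL2L15, -0.77 to 0.66 for BMF and -0.87 to 0.17 for PMAIP1. On mice 1 and 2 with the block they were 0.94 for BAK1, 0.68 for BCL2L11 and 0.17 for PMAIP1, and voom with the block gave 0.056 for BCL2L11 and 0.053 for BMF. The cause was not tested. The log2 ratio BCL2/BCL2A1 ran from -0.26 to 1.23 and BCL2L11/BCL2 from -0.59 to 1.00 with a library left out. MCL1, BCL2L1, BAX and BID kept their direction under all 18 alternatives. Filtering at 5 CPM removed BAK1. With 3 libraries a group the median width of the 95% interval over all genes was 2.14 (log2), and BAK1 rested on 0 to 19 reads per library.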
